A study of Homo sapiens with 2 samples.

Results

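The carcinoembryonic antigen (CEA) family was followed in cells of SW48, a human line established from a colorectal cancer, after transfection of an siRNA against YY1. Its members were chosen by gene symbol. They were CEACAM1, CEACAM3, CEACAM4, CEACAM5, CEACAM6, CEACAM7, CEACAM8 and CEACAM19, and 7 of these 8 genes had a value, out of 17687 named genes. The expression of CEACAM4 was not analysed here. In these values CEACAM5, the gene of carcinoembryonic antigen itself, was 2.60-fold lower in siYY1 than in siControl, and CEACAM1 was 2.84-fold lower at a dim level. CEACAM6, the only other member above the median level of all genes, was 1.27-fold lower.

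The siControl cells were given the AllStars negative control siRNA and the siYY1 cells an siRNA against YY1, a DNA-binding zinc finger protein that switches some target genes on and others off. Both siRNAs were used at 5 nmol/L, with lipid transfection, and total RNA was taken after 3 days of culture. Each group was 1 array, so no value has a replicate error, no test was possible, and every difference below describes these 2 arrays. The siYY1 group rests on a single siRNA, so effects of YY1 and other effects of that siRNA cannot be told apart. The level of YY1 was not analysed here, so the knockdown was not checked. The family was picked with the differences of these arrays known. Its counts are therefore a description and support nothing.

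CEA family proteins are cell surface glycoproteins built from immunoglobulin domains, and they bind each other or other family members on neighbouring cells. CEACAM5, CEACAM6, CEACAM7 and CEACAM8 are held in the membrane by a glycosylphosphatidylinositol (GPI) lipid anchor, whereas CEACAM1, CEACAM3, CEACAM4 and CEACAM19 cross the membrane. In the colon, CEACAM1, CEACAM5, CEACAM6 and CEACAM7 lie on the apical surface of mature epithelial cells. In colorectal tumours CEACAM5 and CEACAM6 are commonly abundant, and the CEACAM5 protein is the serum marker CEA. CEACAM3, CEACAM4 and CEACAM8 are known as granulocyte genes.

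The genes arose by duplication, and their start regions were compared for that reason. The 250 bases before the RefSeq start are shown for both bright members (CEACAM5 and CEACAM6), for CEACAM1, whose difference was the largest of the family, and for CEACAM7, whose sequence was the nearest to that of CEACAM5. Sequences and coordinates are from RefSeq, build GRCh38.p14, and read 5′ to 3′ on the strand of the gene. Capitals mark CCAT on either strand (ATGG where it lies on the other strand), the short core of the sequence that YY1 binds.
CEACAM5 (chr19:41708376-41708625, plus strand): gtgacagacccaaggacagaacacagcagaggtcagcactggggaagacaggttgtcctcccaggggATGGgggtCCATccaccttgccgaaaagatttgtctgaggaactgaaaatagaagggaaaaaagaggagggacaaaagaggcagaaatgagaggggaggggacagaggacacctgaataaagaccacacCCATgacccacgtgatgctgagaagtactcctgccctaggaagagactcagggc
CEACAM6 (chr19:41755280-41755529, plus strand): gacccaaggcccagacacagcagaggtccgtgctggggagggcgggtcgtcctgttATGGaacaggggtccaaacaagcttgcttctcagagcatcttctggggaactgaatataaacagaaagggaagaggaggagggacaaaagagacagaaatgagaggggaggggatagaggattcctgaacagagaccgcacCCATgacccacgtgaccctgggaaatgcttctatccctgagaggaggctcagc
CEACAM7 (chr19:41688271-41688520, minus strand): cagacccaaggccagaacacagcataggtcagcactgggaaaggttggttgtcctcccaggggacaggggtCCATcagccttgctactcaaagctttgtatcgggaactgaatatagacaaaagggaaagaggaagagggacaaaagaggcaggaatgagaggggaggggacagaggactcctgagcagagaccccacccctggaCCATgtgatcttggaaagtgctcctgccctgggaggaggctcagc
CEACAM1 (chr19:42528482-42528731, minus strand): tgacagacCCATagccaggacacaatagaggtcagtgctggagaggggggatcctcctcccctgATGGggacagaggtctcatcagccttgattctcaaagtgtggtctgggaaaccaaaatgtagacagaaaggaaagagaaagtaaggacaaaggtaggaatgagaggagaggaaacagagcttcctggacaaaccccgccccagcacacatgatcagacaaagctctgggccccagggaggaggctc

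Start regions were available for 7 members, all but CEACAM19, and identity over a global alignment was computed for their 21 pairs. It ran from 54.6% to 80.5%, with a median of 63.9%. Unrelated start windows were not aligned, so no background stands beside these identities. CEACAM5 and CEACAM7 were the most alike at 80.5%, and CEACAM5 and CEACAM6 shared 73.6%. CEACAM5 and CEACAM1, the members with the larger differences, shared 63.5%, close to the median of all pairs. CEACAM7, the nearest to CEACAM5 in this sequence, was dim on both arrays.

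CCAT on either strand occurred in 6 of the 7 member windows. It is a common sequence, present in 71.4% of all 35116 RefSeq start windows of the same length. CEACAM5 held it at 3 places, the last of them 54 to 51 bases before the start, and CEACAM6 at 2, with a copy 53 to 50 bases before the start. The windows of CEACAM7, CEACAM3 and CEACAM1 held 2 copies each, that of CEACAM8 held 1 and that of CEACAM4 held 0. The longer forms GCCAT (29.4% of all windows, and by its letters always overlapping CCAT) and AANATGGCG (1.38%, likewise overlapping CCAT) were in 0 of the 7, both strands searched. CACGTG, the E-box letters that the USF factors recognise, was in 2 of the 7 and in 6.34% of all windows. It lay 46 to 41 bases before the start of CEACAM5 and 45 to 40 bases before that of CEACAM6, just downstream of a CCAT in both and overlapping neither. CCGCCC, a GC box sequence read by Sp1, was in the windows of CEACAM6, CEACAM1 and CEACAM8 and in 42.6% of all windows. TATAAA was in that of CEACAM6 alone, far upstream at 139 to 134 bases before the start, and in 10.7% of all windows. Each match describes letters in the window and shows no binding. Bases after the start were not searched, so a count of 0 says nothing about them.

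The deposited values are log2 values of 1 probe set per member, and a gene was called dim when its mean over both arrays lay under the median of all named genes, 7.54. Values under it were not shown to be above background. By this rule 2 of the 7 members were bright, CEACAM5 and CEACAM6, and 5 were dim. Probe sets differ in how well they hybridise, so levels are compared between the arrays and not between genes. The family members are close copies of each other, and whether their probes separate them was not tested, so single values may hold signal of a relative. A lower value in RNA from whole cultures can come from fewer cells that express a gene or from less RNA per cell, and these cannot be told apart.

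**Figure D1:**
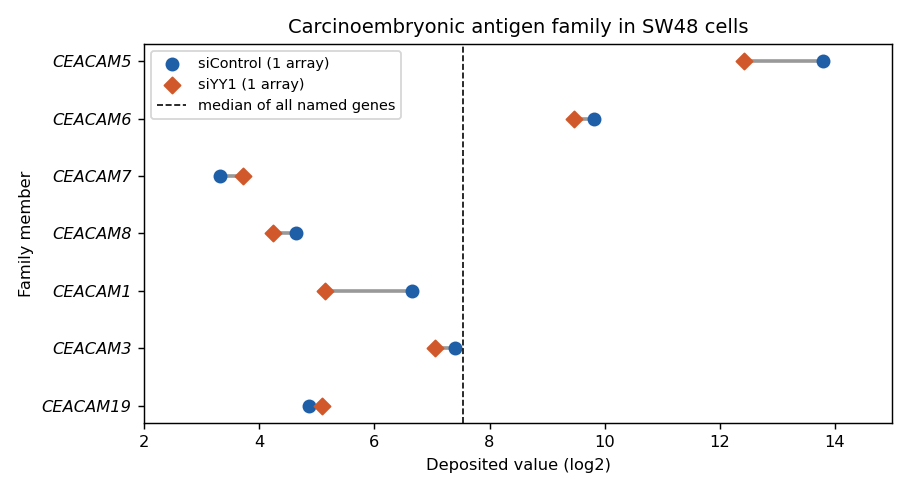
Deposited log2 value (x axis) of each of the 7 members (y axis) on the siControl array (circles) and the siYY1 array (diamonds), with the median of all named genes, 7.54, as a dashed line. CEACAM5 and CEACAM6 lie right of the line, and CEACAM5 and CEACAM1 have the widest gaps between the arrays.

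Among the GPI-anchored members, CEACAM5 had a log2 value of 13.80 in siControl and 12.42 in siYY1. The difference of -1.38 left 38.4% of the siControl value on the linear scale. CEACAM5 ranked 9th from the lowest among the 8844 genes at or above the median level. Of the 929 other named genes whose mean level lay within 0.5 of its own, 0 had a difference as negative. The median absolute difference of the genes in that range was 0.15.

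CEACAM6, an adhesion protein found on both colon epithelium and granulocytes, went from 9.81 to 9.47. Its difference of -0.34 left 78.8% of the siControl value. Of the 1435 other named genes within 0.5 of its mean level, 244 were lower by at least as much, so a difference of this size was common at this level. The difference of CEACAM5 was more negative than that of CEACAM6 by 1.04 on the log2 scale, so the ratio of these genes was not the same on both arrays. That gap lay between -1.09 and -1.04 under the other scalings tried.

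CEACAM7, a GPI-anchored protein of mature colon epithelium, was dim on both arrays, at 3.31 in siControl and 3.71 in siYY1. Its difference of 0.41 was positive, and 247 of 2390 other genes near its level were higher by at least as much. CEACAM8, the granulocyte surface protein CD66b, was likewise dim, at 4.64 and 4.24, with a difference of -0.40. Near its level, 321 of 3033 other genes were lower by at least as much. Neither member was shown to be expressed.

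Among the transmembrane members, CEACAM1, which carries inhibitory signalling motifs in its longer splice forms, went from 6.65 in siControl to 5.15 in siYY1. The difference of -1.50 left 35.3% of the siControl value. It ranked 8th from the lowest of all 17687 named genes. Among 1392 other genes within 0.5 of its mean level, 1 was lower by at least as much, the aldehyde dehydrogenase gene ALDH3B2, named after its value was seen. The median absolute difference in that range was 0.22. Both CEACAM1 values lay under 7.54, so the size of its fold is uncertain, and its splice forms were not separated here.

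CEACAM3, a granulocyte receptor that takes up bacteria, lay just under the median level, at 7.40 and 7.05, with a difference of -0.36. At that level 158 of 1046 other genes were lower by at least as much. CEACAM19, a divergent member, was dim at 4.86 and 5.09, with a difference of 0.24 that 625 of 2385 other genes near its level matched or exceeded. Both differences were of a size seen in many genes of like level.

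**Figure D2:**
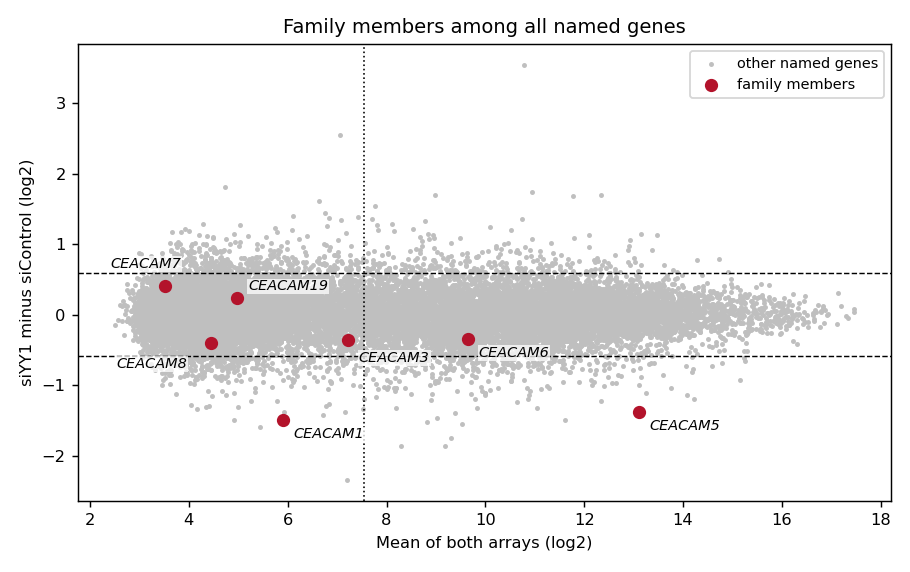
Difference between the arrays (y axis, siYY1 minus siControl, log2) against the mean of both arrays (x axis, log2) for 17687 named genes in grey, with the 7 family members in red. Dashed lines mark 1.5-fold and the dotted line the median level of 7.54, and CEACAM5 and CEACAM1 lie at the lower edge of the cloud while the other 5 members lie within it.

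Over the 7 members, 5 were lower and 2 higher in siYY1, while 47.8% of all named genes were lower. The median difference was -0.36, against 0.01 for all named genes. At the threshold of 1.5-fold, 2 members were lower and 0 higher. Of all named genes, 3.9% were at least 1.5-fold lower, and 3.98% were at least 1.5-fold higher. The share of lower genes was 3.78% among bright genes and 4.03% among dim ones. The same 2 members, CEACAM5 and CEACAM1, were also past 2-fold lower, as were 0.458% of all named genes. The median of the family lay at the value of CEACAM3, since CEACAM6, CEACAM3 and CEACAM8 all lay between -0.40 and -0.34.

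The family's other relatives on the arrays were 10 pregnancy-specific glycoprotein (PSG) genes, whose products are secreted by the placenta, and CEACAM16, CEACAM20 and CEACAM21. All 13 were dim, with values from 3.11 to 5.69. Their differences ran from -0.39 in PSG1 to 0.77 in PSG8, with a median of 0.10, and 4 were below 0 and 9 above. The differences of CEACAM5 and CEACAM1 lay well below this range, that of CEACAM8 (-0.40) lay just below it, and those of the other members lay within it. PSG8 was past 1.5-fold higher although dim (3.94 and 4.71), as were 4.92% of all dim genes.

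Members stand in 3 groups on chromosome 19 in RefSeq gene order (assembly GRCh38.p14). CEACAM4, CEACAM7, CEACAM5, CEACAM6 and CEACAM3 follow each other, CEACAM1 and CEACAM8 form a pair, and CEACAM19 stands apart. Beside the first group, DMAC2, a mitochondrial complex assembly factor, went from 11.77 to 12.37, a difference of 0.60, on one side, and the ribosomal protein gene RPS19 differed by -0.12 on the other. Nearer to the members, the dim neighbours ERICH4 (0.07), CEACAM21 (0.10), LYPD4 (0.16) and DMRTC2 (-0.34) had small differences. Beside the pair, CNFN was the one bright neighbour and differed by -0.01. The dim neighbours there were LIPE, which encodes hormone-sensitive lipase (0.81), the chemokine gene CXCL17 (-0.22), PSG3 (-0.39), PSG8 (0.77) and PSG1 (-0.39). Around CEACAM19, the poliovirus receptor gene PVR, a nectin-like adhesion protein, differed by 0.03 and the Lutheran blood group adhesion gene BCAM by 0.26. CBLC, an epithelial ubiquitin ligase, went from 7.06 to 6.12 (-0.94) at a dim level, and CEACAM20 (0.37), IGSF23 (-0.14) and CEACAM16 (0.16) were dim as well.

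From the first to the last member in this order lie 74 other protein-coding genes, of which 71 had a value and 22 were bright. Their median difference was -0.06, and 2 of the 22 were at least 1.5-fold lower (9.09%, against 3.78% of all bright genes) and 0 higher (against 3.04%). These were PLAUR, the urokinase receptor, with a difference of -1.14, and the zinc finger gene ZNF227 (-0.95), the latter named after its value was seen. The other bright genes in this stretch lay within 1.5-fold.

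**Figure D3:**
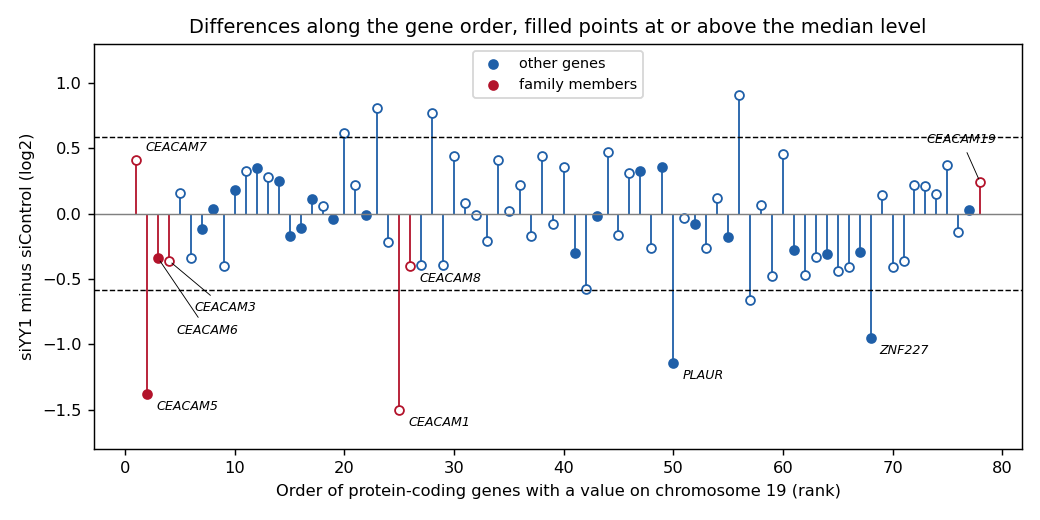
Difference between the arrays (y axis, siYY1 minus siControl, log2) for each protein-coding gene with a value from CEACAM7 to CEACAM19, in their order on chromosome 19 (x axis, rank). Family members are red, filled points are at or above the median level, dashed lines mark 1.5-fold, and CEACAM5, CEACAM1, PLAUR and ZNF227 reach lowest.

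Like CEACAM5, other surface proteins are held by a GPI anchor, and the list of them was not limited to epithelial proteins. Of 42 such genes with a value, 21 were bright, with 3 at least 1.5-fold lower and 0 higher, against 3.78% and 3.04% of all bright genes. Their median difference was 0.05, against 0.00 for all bright genes, and it turned to -0.18 with a stricter filter at the 75th percentile of level and was 0.16 with no filter. CD24, a small mucin-like glycoprotein, went from 11.70 to 10.38 (-1.32), PLAUR from 11.45 to 10.31 (-1.14) and the complement inhibitor gene CD55 from 15.60 to 14.68 (-0.92). At the other end were ULBP2, a ligand of the lymphocyte receptor NKG2D (0.57), and the glypican gene GPC4 (0.33). PLAUR, LYPD3 and TEX101 of this list lie between members on chromosome 19, and the latter pair, named for its position after its values were seen, was dim.

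Genes that make, attach and remodel the GPI anchor showed no member past 1.5-fold among 25 bright ones, and their median was 0.00. Of all bright genes, 3.78% were lower and 3.04% higher past that threshold, so an empty count in a short list says little. The lowest were PGAP3, which remodels the lipid part (-0.47), and DPM3, a stabilising subunit of dolichol-phosphate mannose synthase (-0.40). The highest were PIGX (0.52), a partner of the first mannosyltransferase, and MPPE1 (0.33), which trims the anchor.

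Of 19 genes for reported partners of CEACAM proteins with a value, 14 were bright, and their median difference was 0.14. Of these 14, 12 were above 0, as were 4454 of all 8844 bright genes. The integrin genes ITGB1 (13.89 to 14.67, difference 0.78) and ITGAV (9.81 to 10.56, difference 0.75) and the Src family kinase gene FGR (7.43 to 8.15, difference 0.72) were at least 1.5-fold higher, against 3.04% of all bright genes, and 0 were 1.5-fold lower, against 3.78%. FGR lay under 7.54 in siControl, so its fold is uncertain. The lowest of the list were the adaptor gene NCK1 (-0.29) and PTPN11 (-0.15), a phosphatase that binds the tail of CEACAM1.

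Transcription factors reported to act on CEACAM genes had a median difference of 0.16 over 15 bright genes. Of these 15, 0 were past 1.5-fold, against 3.78% of all bright genes lower and 3.04% higher. USF2, which binds the E-box, and NFKB1 were the highest, each at 0.42. USF1 (0.37), which also binds the E-box, and SP1 (0.17), which binds GC boxes, were named for these roles after their values were seen. TFAP2A (-0.34) and SOX9 (-0.23) were the lowest. Regulators of epithelial and CEACAM1 splicing had 0 of 6 past 1.5-fold and a median of -0.02. With the shares above, a count of 0 in lists this short says little about them. Among the splicing regulators, ESRP1 and HNRNPL were lowest (each -0.09) and HNRNPM (0.15) and HNRNPA1 (0.02) highest.

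**Figure D4:**
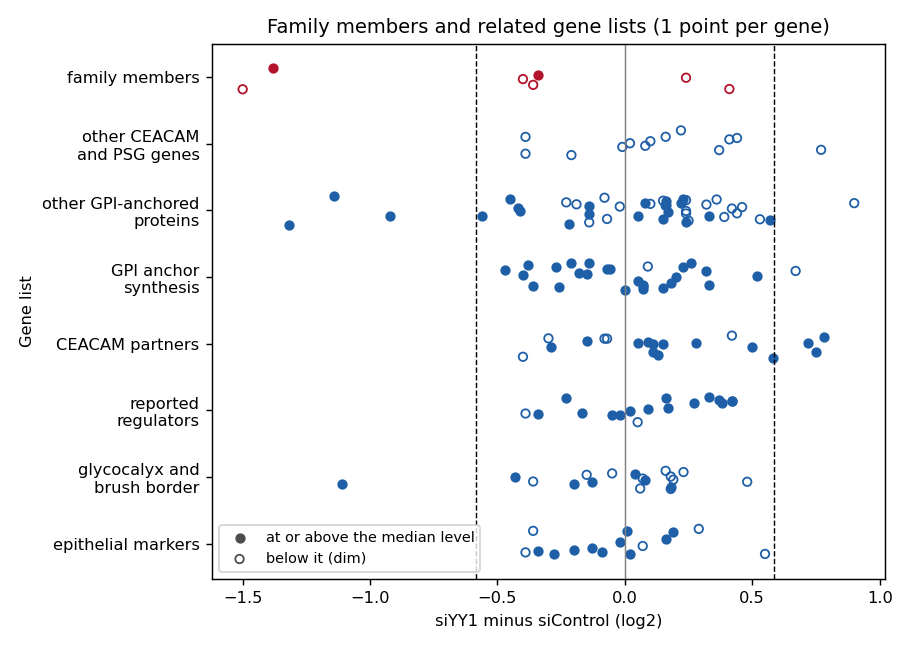
Difference between the arrays (x axis, siYY1 minus siControl, log2) for the 7 family members and for the genes of 7 lists (y axis), 1 point per gene, filled where the gene was at or above the median level. Dashed lines mark 1.5-fold, and left of the lower line lie CEACAM5, CEACAM1, CD24, PLAUR, CD55 and DPP4.

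The apical surface on which CEA proteins sit was described by glycocalyx and brush border genes. Of 7 bright genes, 1 was 1.5-fold lower, the brush border peptidase gene DPP4 (10.54 to 9.44, difference -1.11), against 3.78% of all bright genes. The median was -0.13 and turned to 0.06 with no filter on level. The transmembrane mucin gene MUC13 differed by -0.43, ESPN by 0.18 and EPS8 by 0.08. Markers of mature colonocytes were mostly dim, with 1 of 17 bright, the sulfate transporter gene SLC26A2 (0.36), and the median level of the list was 4.57 in siControl and 4.38 in siYY1. Of 15 epithelial and intestinal markers, 10 were bright, with a median difference of -0.06. Of these 10, 0 were past 1.5-fold, against 3.78% of all bright genes lower and 3.04% higher. Most of the bright markers are general epithelial genes such as KRT19, CLDN3 and EPCAM. The intestinal genes CDX2 and CDH17 were bright as well. CDH17 (10.65 to 10.63, difference -0.02) was named after its values were seen. The 5 dim ones, named after their values were seen, were VIL1 (6.04 in siControl), ELF3 (5.61), GPA33 (5.26), CDX1 (4.12) and LGALS4 (4.11), mostly genes of intestinal epithelium. KRT19 (-0.34) and CLDN3 (-0.28) were the lowest and EPCAM (0.19) and CDX2 (0.16) the highest.

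Granulocytes express CEACAM3, CEACAM6 and CEACAM8, and their other markers were examined for that reason. All 21 with a value were dim, with values from 3.12 to 5.64 in siControl and 3.19 to 5.78 in siYY1. All 9 fibroblast and endothelial markers were dim too, from 3.12 to 5.97 and from 3.34 to 5.66.

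The genes whose pair of values lay nearest to that of CEACAM5, by Euclidean distance over both arrays, were EMP1 (distance 0.26, difference -1.11), TXNRD2 (0.27, difference -0.99) and ATP1B1 (0.35, difference -0.89). Their differences were all less negative than that of CEACAM5. For CEACAM6 they were PAXX, ACVR2A and SPRYD4, each at a distance of 0.03, with differences of -0.33, -0.36 and -0.32. Likeness over 2 arrays is a weak description. ACTB and GAPDH, often used as references, had differences of 0.11 and -0.03.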

How the data were processed

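Total RNA of SW48 cells was hybridised to whole-transcript GeneChip arrays, 1 for siControl and 1 for siYY1, grouped by the sample titles. The authors deposited 1 log2 value per probe set, a unit read from the values (2.32 to 17.97). Not given in the sources used here are the software, any background correction, the normalization and the base of the logarithm. After sorting, the 2 columns were within 0.153 of each other at every rank. Folds take the values as plain log2.

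Of 21448 probe sets, 17709 had 1 gene symbol in GEO's platform annotation and 3739 had none in the table used. Symbols were checked by Entrez identifier against RefSeq (GRCh38.p14), and 0 changed. Probe sets of the same gene were averaged (20 genes, no family member). Genes with a mean at or above the median were called bright (8844). With 1 array per group there is no test, and a threshold of 1.5-fold took its place. The number of arrays limits the precision.

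Members and lists were chosen with earlier results of these data known. Named were all members, for each list up to 2 bright genes at each end and those past 1.5-fold, 3 neighbours on each side, the 3 nearest patterns of each bright member, and ACTB and GAPDH. The text says where it names others. Start windows were the 250 bases before each RefSeq start. They were aligned globally with scores of 2 for a match, -1 for a mismatch, -5 to open and -1 to extend a gap. Alternatives were quantile normalization, median and lowess centring (fraction 0.3), the brightest probe set, other filters and other thresholds. The fold rule and lowess centring were tested on simulated data at the levels of bright genes. The planted differences lay well past the threshold and no trend with level was planted, so recovery was largely fixed in advance. Dim genes and the other steps were not tested in this way. Python 3.11.15, numpy 2.4.6, pandas 2.3.3, statsmodels 0.14.6, Biopython 1.88 and matplotlib 3.10.9 were used.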

Additional observations from a re-analysis of the deposited data

How the results depend on the processing

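All 28 recomputed member differences (7 members under quantile normalization, median centring, lowess centring and the brightest probe set) kept their direction and their side of 1.5-fold, and moved by at most 0.05. Each member had 1 probe set, so taking the brightest probe set could not change a member value. Median centring subtracts the same small constant from every gene. Stability under these settings was therefore largely fixed in advance. CEACAM5 lay between -1.39 and -1.38 and CEACAM1 between -1.55 and -1.50. Counts moved with the filter and the threshold, by construction. Of the 8844 bright genes, 334 were at least 1.5-fold lower and 269 higher. These counts were 690 and 704 with no filter (17687 genes) and 117 and 87 with a filter at the 75th percentile. They were 1192 and 1082 at the lowest threshold tried (log2 difference of 0.32), and 51 and 33 at 2-fold. Of the members with a value, 2 were lower and 0 higher at 1.5-fold, against 5 and 1 at the lowest threshold. The share of all named genes past the lowest threshold was not computed. Near the levels of the added members, differences as large were common. They were matched or exceeded by 244 of 1435 other genes for CEACAM6 and 158 of 1046 for CEACAM3. For CEACAM8 they were matched or exceeded by 321 of 3033, and for CEACAM7, which was higher, by 247 of 2390. Of the bright members, 1 was lower, against 2 at the lowest threshold and 2 with no filter, where CEACAM1 is counted. Over all the lists, 4 bright genes were lower and 3 higher, while of all bright genes 3.78% were lower and 3.04% higher. The lists share genes and their distinct bright genes were not counted, so no share of the lists is given. These pooled list counts can therefore not be set against the shares of all genes. They were 7 and 8 with no filter and 15 and 16 at the lowest threshold. Higher list genes numbered 1 at the 75th percentile and 0 at 2-fold. Of 49 recomputed list medians, 3 moved by 0.1 or more. The median of the other GPI-anchored proteins was 0.16 with no filter and -0.18 at the 75th percentile, and that of the glycocalyx genes was 0.06 with no filter. No paired analysis was possible because each group is 1 array, which also leaves no replicate to leave out.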
